A study of Mus musculus with 6 samples.

Results

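Genes for the microfibrils of the aortic wall were described across the cells of the mouse aortic root and ascending aorta. They were the fibrillins Fbn1 and Fbn2, the latent TGF-β binding proteins Ltbp1, Ltbp2, Ltbp3 and Ltbp4, the microfibril-associated proteins Mfap2, Mfap4 and Mfap5, and Emilin1. These 10 of 31053 mouse genes in the count matrix were chosen by their symbol, and each had 1 row. Single-cell libraries came from 6 female mice at 16 weeks of age on a 129SVE background, with 4 controls (Tgfbr1+/+) and 2 LDS mice, which carried 1 copy of the kinase missense allele (Tgfbr1M318R/+) as a model of Loeys-Dietz syndrome. By their labels, 2 of the 4 control mice also carried Wnt2CRE and the EGFP-L10a reporter, which trace cells of the cardiac neural crest. The tissue was digested with collagenase and elastase, and live nucleated cells were sorted, so levels are those of cells that survived the release from their matrix. The number at the end of each cell barcode separates 6 libraries, but no source used here pairs a library with a mouse. No library was therefore given a genotype, control and LDS cells were not compared, and no p-value is given. Values are set within each library and described by their spread over the 6 libraries.

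Fibrillin microfibrils are long beaded filaments outside the cell. In the aorta they form the scaffold on which elastin is laid down between the layers of smooth muscle, and they also hold TGF-β in a latent form. The fibrillins make the filament, the LTBPs bind it and tether latent TGF-β (LTBP2, which lacks this binding, is the exception), and the smaller MFAP and EMILIN proteins decorate the filament or its border with elastin. Mutations of FBN1 cause Marfan syndrome, a disorder of the aortic wall close to Loeys-Dietz syndrome.

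The promoters of the LTBP genes are printed first, because this family holds both the only gene of the set that was higher in smooth muscle than in fibroblasts in every library (Ltbp1) and genes with the opposite order (Ltbp2, Ltbp3 and Ltbp4). RefSeq promoters (GRCm38.p6) were matched for 7 of the 10 genes at 11 starts, and Fbn2, Mfap4 and Mfap5 had no entry. Each sequence below is the 250 bases before a start, 5′ to 3′ on the strand of the gene, and is shown for the 4 starts whose window holds none of the gene's own exons. Capitals mark every match on either strand to GGGCGG, the GC box bound by Sp1-type factors, or CAGAC, a short motif that SMAD proteins can bind. Ltbp1 has a start at the 5′ end of the gene (window chr17:75005279-75005528, plus strand) and a second one inside it (chr17:75178531-75178780, plus strand). The Ltbp3 window is chr19:5740650-5740899 on the plus strand. The printed Ltbp4 window, chr7:27333664-27333913 on the minus strand, belongs to a start inside the gene. Ltbp4 also has a start at its 5′ end (window chr7:27337613-27337862), which is not printed because the window holds bases of its own exons. That window had 64.4% G or C and 3 matches to GGGCGG.
Ltbp1 first start: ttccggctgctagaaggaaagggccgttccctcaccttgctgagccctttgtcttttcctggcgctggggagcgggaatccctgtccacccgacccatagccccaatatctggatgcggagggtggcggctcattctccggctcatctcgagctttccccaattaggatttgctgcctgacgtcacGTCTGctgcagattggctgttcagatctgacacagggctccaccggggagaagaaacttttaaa
Ltbp1 second start: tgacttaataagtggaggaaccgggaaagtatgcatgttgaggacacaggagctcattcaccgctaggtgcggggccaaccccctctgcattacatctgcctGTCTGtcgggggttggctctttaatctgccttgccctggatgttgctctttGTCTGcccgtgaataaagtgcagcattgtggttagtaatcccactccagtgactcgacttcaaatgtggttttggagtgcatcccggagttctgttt
Ltbp3: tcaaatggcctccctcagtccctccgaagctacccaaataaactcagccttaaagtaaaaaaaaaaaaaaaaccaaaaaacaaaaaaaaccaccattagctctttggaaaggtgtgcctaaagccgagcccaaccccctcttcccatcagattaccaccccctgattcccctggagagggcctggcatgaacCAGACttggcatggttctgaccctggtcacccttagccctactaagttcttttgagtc
Ltbp4: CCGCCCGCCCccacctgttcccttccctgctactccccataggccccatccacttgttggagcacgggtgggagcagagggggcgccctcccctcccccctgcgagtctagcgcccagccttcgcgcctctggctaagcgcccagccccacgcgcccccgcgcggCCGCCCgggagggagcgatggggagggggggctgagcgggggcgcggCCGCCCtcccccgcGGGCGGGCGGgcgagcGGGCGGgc
The printed Ltbp4 window, at the inner start, was the most GC-rich of the 4 printed. It had 79.2% G or C and 7 matches to GGGCGG, some of which overlap each other. The other 3 printed windows held from 47.2% to 56.8% G or C, no GGGCGG and 1 or 2 matches to CAGAC. Of all 32851 promoters in the table, 32.7% held GGGCGG and 42.2% held CAGAC, so both motifs are common. The TATA box letters TATAAA, which 12.4% of all promoters held, were in 0 of the 11 windows. The same was true of the GATA-type motif AGATAA (9.99% of all promoters) and of the CArG box of serum response factor (1.47%). The reads were counted from the 3′ end of transcripts, so the libraries do not tell which start of Ltbp1 or Ltbp4 was in use.

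Of 30716 barcodes, 24972 passed the filter of the study (over 1000 and under 5000 genes, over 1500 and under 25000 unique molecular identifiers or UMIs, and under 20% mitochondrial UMIs). The libraries held from 1863 to 6395 of these cells and from 18218282 to 38105145 UMIs, with medians of 5572 to 9838 UMIs per cell. Over all barcodes, 1612 barcode sequences occurred in more than 1 library, nearly all among libraries 1, 3, 4 and 5 or between libraries 2 and 6, but only 76 did so among the kept cells. Clustering gave 10254 VSMC-like, 13599 fibroblast-like, 568 endothelial-like and 551 leukocyte-like cells (VSMC, vascular smooth muscle cell). The summed level of 7 VSMC markers was 66501 CPM, the usual scaling of UMIs to a common total, in VSMC-like cells against 2022 in fibroblast-like cells, and that of 8 fibroblast markers was 1262 against 28513 (medians of 6 libraries). The 6 endothelial and 9 leukocyte markers summed to 3853 and 11335 CPM in their own class and to at most 62.9 CPM in the others. The endothelial-like values rest on few cells, 10 in the smallest library. Leukocytes make little matrix, so leukocyte-like cells served as the measure of free RNA. Of them 5.63% were marked as doublets (22.2% in library 2), beside 2.71% of VSMC-like and 2.42% of fibroblast-like cells. Their levels may therefore hold mixed cells as well as free RNA, which was not tested.

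Most of these genes had their highest level in fibroblasts of the wall, but the division of labour differed from gene to gene. Fbn1, Ltbp2, Mfap2 and Mfap5 were far higher in fibroblast-like than in VSMC-like cells. Ltbp4 was higher by a median log2 ratio of 1.16, and Ltbp3 and Mfap4 were nearly even. Ltbp1 alone was higher in VSMC-like cells in all 6 libraries, and Emilin1 was slightly higher there in 5 of 6. Of the 10 genes, 9 passed the filter of 10 CPM over the cells compared, 7 of them were higher in fibroblast-like cells in all 6 libraries and 1 was lower in all 6. Mfap2, 1 of the 7, passed only through fibroblast-like cells, with 151 CPM there and 7.92 CPM in VSMC-like cells. Over all 8178 genes that passed, 37% were higher and 34.8% lower in all 6 libraries, so 1 direction in every library is common between 2 cell types. The median log2 ratio of the 9 genes was 1.16, beside 0.01 over all genes.

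**Figure D1:**
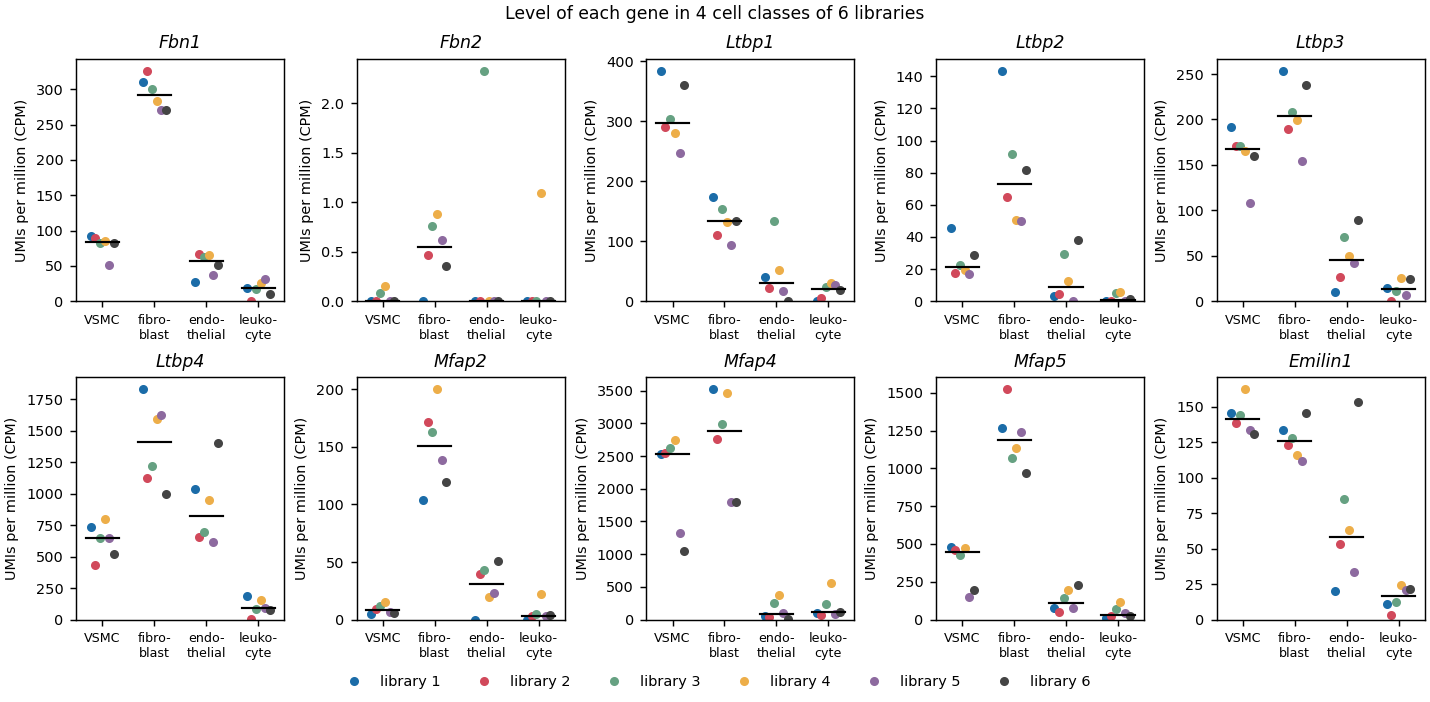
Level of each gene in CPM (linear axis from 0, a different scale in each panel) in VSMC-like, fibroblast-like, endothelial-like and leukocyte-like cells. Points are the 6 libraries and bars their medians. The Fbn1, Ltbp2, Mfap2 and Mfap5 points of fibroblast-like cells lie above all VSMC-like points, the Ltbp1 points lie below them, and in VSMC-like cells libraries 5 and 6 have the lowest Mfap4 and Mfap5.

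Fbn1, the fibrillin of the adult wall, had 270.2 CPM in its lowest library, 291 at the median and 327 in its highest in fibroblast-like cells. In VSMC-like cells it had 51.3, 84.1 and 92.2 CPM. The ranges did not overlap, and the log2 ratio was 1.81 at the median and 1.71 to 2.40 over libraries. Library 5 gave both the lowest VSMC level and the largest ratio. Endothelial-like cells had 57.0 CPM and leukocyte-like cells 18.2 CPM at the median, in the same order in 6 of 6 libraries although the ranges overlapped.

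Fbn2, the fibrillin of development, was all but absent. It had 55 UMIs in 13599 fibroblast-like cells and 3 in 10254 VSMC-like cells, and its median level in fibroblast-like cells was 0.54 CPM. It did not pass the filter, and no order of classes can be read from so few counts. Of the 55 UMIs, 22 came from fibroblast 3 and 16 from fibroblast 4, subclusters described further on. In fibroblast 3 the level was 0 in library 1 and 3.38 to 5.87 CPM in the other 5 libraries.

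Ltbp1 encodes the founding member of the LTBP family. In VSMC-like cells it had 248 CPM at the lowest, 297 at the median and 384 at the highest. In fibroblast-like cells the values were 94.2, 133 and 174 CPM. Every VSMC-like value was thus above every fibroblast-like value, with a log2 ratio of fibroblast-like over VSMC-like cells of -1.27 (-1.42 to -0.99). After each cell was thinned to 3000 UMIs, 53.2% of VSMC-like cells (95% exact binomial interval 52.2 to 54.2) and 28.7% of fibroblast-like cells (27.9 to 29.5) held a UMI of Ltbp1, beside 3.56% of leukocyte-like cells. Without thinning the shares were 76.8%, 45.7% and 6.53%, at median depths of 7213, 6113 and 5168 UMIs. Endothelial-like cells had 31.1 CPM, and their order against leukocyte-like cells (21.0 CPM) held in 4 of 6 libraries.

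Ltbp2, the LTBP that does not carry TGF-β, went the other way. It had 49.8, 73.3 and 144 CPM (lowest, median and highest library) in fibroblast-like cells and 16.9, 21.0 and 45.5 CPM in VSMC-like cells. The log2 ratio was 1.61 (1.38 to 2.02). Library 1 was the highest in both classes, so the difference within each library is clearer than the difference between the ranges. Leukocyte-like cells had 10 UMIs in all.

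Ltbp3 and Ltbp4 also carry latent TGF-β, and both had more transcripts in fibroblast-like cells. Ltbp3 had 154, 204 and 254 CPM (lowest, median and highest library) in fibroblast-like cells and 108, 168 and 192 CPM in VSMC-like cells. The ranges overlapped, but the ratio was above 0 within each of the 6 libraries (median 0.35 and 0.15 to 0.57 on the log2 scale). Ltbp4 had 994, 1406 and 1831 CPM in fibroblast-like cells and 436, 649.6 and 795 CPM in VSMC-like cells, with no overlap and a log2 ratio of 1.16 (0.91 to 1.36). Endothelial-like cells had 614, 821 and 1405 CPM of Ltbp4, above VSMC-like cells in 5 of 6 libraries with overlapping ranges.

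Mfap2 encodes MAGP-1 and Mfap5 its paralog MAGP-2, small proteins that bind fibrillin. Mfap2 showed the largest difference of the set. It had 104, 151 and 200 CPM (lowest, median and highest library) in fibroblast-like cells but 5.13, 7.92 and 15.5 CPM in VSMC-like cells, a log2 ratio of 4.29 (3.69 to 4.35). Thinned to 3000 UMIs, 33.8% of fibroblast-like cells but 2.74% of VSMC-like cells (2.43 to 3.09) held a UMI, and the share in leukocyte-like cells, 2.22% (1.07 to 4.05), had an overlapping interval. Before thinning the shares were 51.0%, 5.88% and 3.45%. The Mfap2 of VSMC-like cells as a whole could therefore not be told from that of leukocyte-like cells by its share, although its level was above theirs (3.52 CPM) in 5 of 6 libraries. Mfap5 had 969, 1185 and 1525 CPM in fibroblast-like cells and 151, 445 and 483 CPM in VSMC-like cells, with a log2 ratio of 1.56 (1.25 to 3.03).

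Mfap4, a fibrinogen-domain glycoprotein that binds elastin and fibrillin, had 1792, 2878 and 3526 CPM (lowest, median and highest library) in fibroblast-like cells. In VSMC-like cells it had 1047, 2536 and 2753 CPM, so that the ranges overlapped, and the log2 ratio was 0.39 (0.12 to 0.78). By share of thinned cells the order turned, with 83.8% of VSMC-like and 79.2% of fibroblast-like cells holding a UMI, and 20.7% of leukocyte-like cells. The shares before thinning were 88.1%, 83.8% and 29.6%. No order of the 2 classes is read from these shares.

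Emilin1, an elastin-interface protein that also binds the TGF-β precursor, had 112, 126 and 146 CPM in fibroblast-like cells and 131, 141 and 163 CPM in VSMC-like cells. The log2 ratio was -0.17 (-0.49 to 0.16), and library 6 alone was above 0. The 2 classes did not differ beyond their spread.

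The levels of 3 genes varied unusually between libraries within smooth muscle. Of the 8 genes that passed 10 CPM in VSMC-like cells, Ltbp2 (2.70-fold), Mfap4 (2.63-fold) and Mfap5 (3.19-fold) differed by more than 2-fold between the highest and the lowest library, beside 9.85% of all 7699 genes. For Mfap4 the 2 lowest were library 6 (1047 CPM) and library 5 (1319 CPM), and the other 4 lay between 2525 and 2753 CPM. For Mfap5 they were library 5 (151 CPM) and library 6 (192 CPM), and the others lay between 428 and 483 CPM. In fibroblast-like cells Mfap4 was again lowest in libraries 5 and 6, at 1792 CPM in each, but Mfap5 was 1238 CPM in library 5 and 969 CPM in library 6 against 1072 to 1525 CPM in the others. The gap of these libraries in Mfap5 was thus seen in smooth muscle and not in the same form in fibroblasts. Of 9 genes that passed in fibroblast-like cells, only Ltbp2 (2.88-fold) was over 2-fold, beside 13% of 8123 genes. The genotype of these libraries is not known here, and the part of genotype, neural crest tracing or preparation in their values cannot be told apart.

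**Figure D2:**
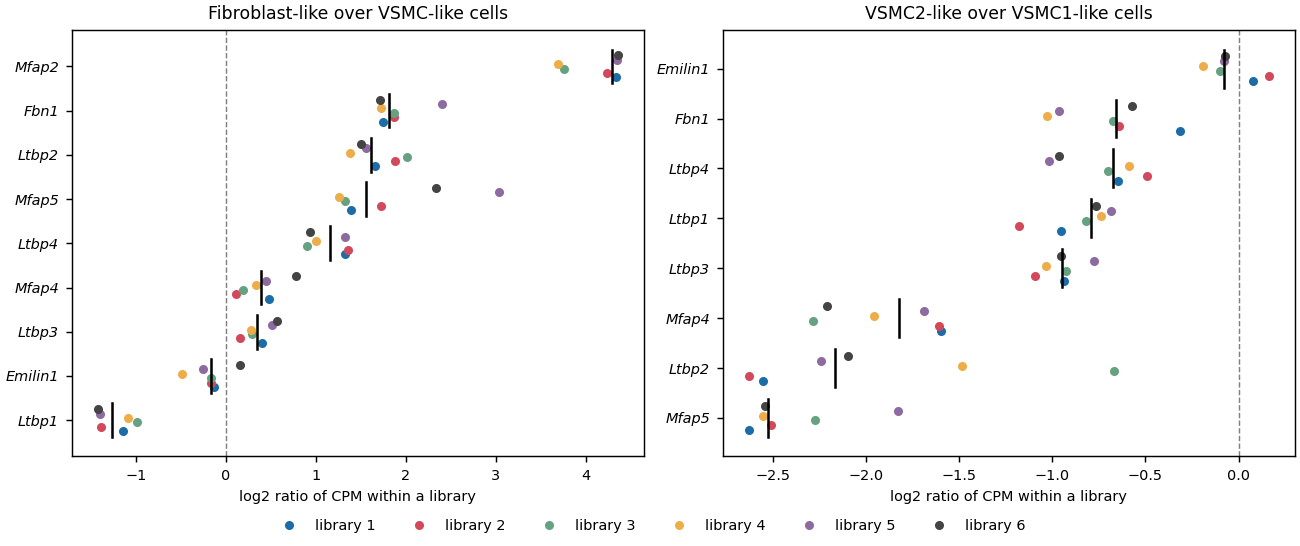
Log2 ratio of CPM within each library for the genes that passed 10 CPM, in fibroblast-like over VSMC-like cells (left) and in VSMC2-like over VSMC1-like cells (right). Points are libraries, bars their medians and the dashed line marks an equal level. On the left all but Ltbp1 and Emilin1 lie above 0 in every library, and on the right all but Emilin1 lie below 0 in every library.

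The study divided VSMCs into 2 subtypes, and the same markers were used to name subclusters here. VSMC2-like cells (1420 cells) took their name from Notch3 and Enpep, which were higher in them, with Ptprz1 and Tes lower, and VSMC1-like cells (8660) were the other large subcluster. The study describes its VSMC2 as less differentiated, with lower Myh11 and Cnn1. Here Cnn1 was lower in all 6 libraries (median log2 ratio -0.22). Myh11 was even (0.008, higher in 3 libraries and lower in 3), and Tagln, Smtn and Tpm2 were higher in all 6. Cnn1 thus went the way the study describes, and Myh11 did not. For Tagln, Smtn and Tpm2 the text of the study gives no direction. It also names Dcn among the genes higher in VSMC2, and here Dcn was higher in all 6 libraries (1.04). The other genes it names for this state are not given here. Most of the microfibril genes were lower in VSMC2-like cells. Of the 8 genes that passed 10 CPM, 7 were lower in all 6 libraries and 0 were higher in all 6, beside 24.5% lower and 11.9% higher of all 7664 genes. Ltbp2, 1 of the 7, passed only through VSMC1-like cells, with 22.6 CPM there and 7.83 CPM in VSMC2-like cells. Its direction is thus partly set by the filter. The median log2 ratio of the 8 genes was -0.87, and that of all genes was -0.08. The cells were clustered on their transcripts, with these genes left out of the variable features, so the values describe the subclusters and are no test.

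The largest differences were in Mfap5, Ltbp2 and Mfap4. Mfap5 had 166, 484 and 536 CPM (lowest, median and highest library) in VSMC1-like cells against 38.9, 86.9 and 94.1 CPM in VSMC2-like ones, which gave a log2 ratio of -2.53 (-2.63 to -1.83). Mfap4 had 1229, 2768 and 3156 CPM in VSMC1-like cells against 265, 701 and 946 CPM in VSMC2-like ones, a ratio of -1.82 (-2.28 to -1.60). The 2 subtypes did not overlap for either gene, even with the low values of libraries 5 and 6 included. Among thinned cells, 91.0% of VSMC1-like but 40.4% of VSMC2-like cells held a UMI of Mfap4, and 48.8% against 11.6% held 1 of Mfap5. The unthinned shares were 94.4% and 50.0% for Mfap4, and 63.2% and 20.1% for Mfap5.

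All 4 latent TGF-β binding proteins were lower in VSMC2-like cells, to different degrees. Ltbp2 had 18.9, 22.6 and 48.5 CPM in VSMC1-like cells and 3.15, 7.83 and 14.5 CPM in VSMC2-like cells. Its ratio of -2.17 rests on 73 UMIs in VSMC2-like cells and ran from -2.63 to -0.67 over libraries. Ltbp3 had 115, 181 and 199 CPM against 66.9, 89.5 and 104 CPM, and its ratio was the most even of the set (-0.95, from -1.10 to -0.78). Ltbp1 had 261, 320 and 400.1 CPM against 142, 181 and 230 CPM (-0.79, from -1.18 to -0.68). Ltbp4 had 454, 681 and 824 CPM against 293, 377 and 547 CPM, and here the ranges overlapped although each library kept the order (-0.67, from -1.02 to -0.49).

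Fbn1 had a log2 ratio of -0.66 (-1.03 to -0.32), with overlapping ranges of 54.0, 85.9 and 93.6 CPM in VSMC1-like cells and 27.7, 54.9 and 74.6 CPM in VSMC2-like cells. Of the genes that passed the filter, Emilin1 alone did not follow. It had 132, 141 and 171 CPM in VSMC1-like cells against 125, 143 and 153 CPM in VSMC2-like ones, a ratio of -0.08 (-0.19 to 0.16) with 2 libraries above 0. Mfap2 (7.27 and 8.36 CPM at the median) and Fbn2 (1 UMI in each subtype) did not pass the filter. Mfap2 did not follow either, with a ratio of 0.02, higher in 3 libraries and lower in 3, on 498 and 86 UMIs.

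Some other measures moved with the subtypes. The summed dissociation transcripts were higher in VSMC2-like cells (16875 to 29347 CPM over libraries, 20 of 20 genes detected) than in VSMC1-like cells (10974 to 23083 CPM). When the 2 subtypes were matched on this share, the same count of 7 genes was lower in all 6 libraries, and the Mfap5 ratio was -2.20. When so matched, the median shares were alike, at 1.82% of UMIs in both. The 8 fibroblast markers summed to 529 to 2078 CPM in VSMC2-like and 747 to 1597 CPM in VSMC1-like cells, and the 7 VSMC markers to 68983 to 78532 and 62059 to 67725 CPM. These sums hide unlike members. Of the fibroblast markers, Dcn, Lum, Dpt and Serpinf1 each had their higher level in the VSMC2-like cells of all 6 libraries, with log2 ratios of 0.82 to 1.39, and Col1a1 was lower in 6 of 6 (-0.85). The 5 pericyte markers summed to a median of 318 CPM in VSMC2-like and 462 CPM in VSMC1-like cells, and the 5 cardiomyocyte markers to 116 and 154 CPM. Against these sums, the pericyte marker Higd1b had a median of 19.7 CPM in VSMC2-like cells with 5 UMIs in all VSMC1-like cells, Vtn had 49 UMIs against 0, and the cardiac actin gene Actc1 had a ratio of 3.62 on the log2 scale, with all 6 libraries above 0. Cells marked as doublets were 2.11% and 1.397%. Without the cells marked as doublets, and likewise without the cells that held 2 or more fibroblast markers, 7 genes were lower in all 6 libraries, with median log2 ratios of -0.87 and -0.98. The part of the pericyte and cardiomyocyte markers was not tested. The result depended on how the cells were split. With all variable genes kept, the subcluster that met the naming rule was larger (2103 cells), 4 genes were lower in every library, Ltbp4 had a log2 ratio of 0.018 and Fbn1 of -0.07, while Mfap5 (-1.15), Mfap4 (-1.02), Ltbp1 (-0.63) and Ltbp3 (-0.57) stayed below 0. Ltbp2 went from -2.17 to -0.47 there. No share over all genes is given for the counts under these alternatives, so they show only whether the main counts changed.

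At a resolution of 0.3 the VSMC-like cells fell into 10 subclusters of at least 100 cells. VSMC 7 (542 cells, all VSMC2-like) was led by Olfr558, an olfactory receptor gene, Pgam2, Rasd1, the phospholamban gene Pln and the skeletal α-actin gene Acta1. It had the lowest median CPM of the 10 subclusters for 7 of the 8 genes that passed (Fbn1, all 4 LTBP genes, Mfap4 and Mfap5), beside 29.3% of all genes. It was detected with at least 20 cells in each library, its median depth of 7273 UMIs was close to that of all VSMC-like cells, 0.18% of its cells were marked as doublets, and its 7 VSMC markers summed to 73006 CPM.

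**Figure D3:**
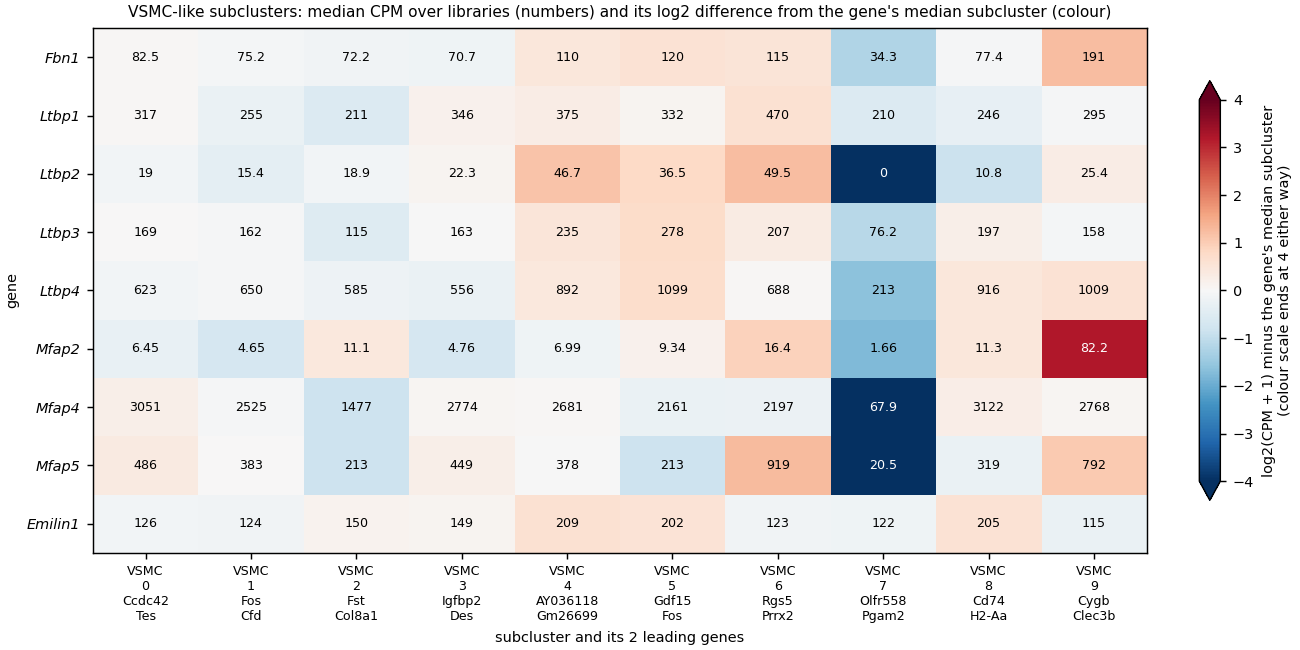
Median CPM over libraries with at least 20 cells (numbers) of 9 genes in 10 VSMC-like subclusters, each named with its 2 leading genes. Colour is the log2(CPM + 1) difference from the median subcluster of the gene, with a scale that ends at 4 either way. VSMC 7 has 67.9 CPM of Mfap4 and 20.5 CPM of Mfap5, far below the other 9. Its Emilin1, 122 CPM, is the second lowest, between the 115 CPM of VSMC 9 and the 123 CPM of VSMC 6.

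In VSMC 7, Mfap4 had 16.9 to 139 CPM over libraries, with a median of 67.9 CPM, while the next lowest subcluster (VSMC 2) had a median of 1477 CPM and no library under 651 CPM. The leukocyte-like cells, taken as free RNA, had 108 CPM at the median and 64.6 to 558 CPM over libraries. The Mfap4 of VSMC 7 was thus not above their level, which may include mixed cells. Mfap5 had 0 to 36.7 CPM with a median of 20.5 CPM, again below the leukocyte-like median of 32.7 CPM and below every library of the next lowest subcluster (VSMC 5, at least 102 CPM, with VSMC 2 at a like median and at least 77.1 CPM). Ltbp4 had 174 to 342 CPM against 418 CPM or more in each library of the next lowest, VSMC 3. Fbn1 had 11.6 to 47.3 CPM, Ltbp3 55.0 to 84.0 CPM, and Ltbp2 10 UMIs in all, with a median of 0. Ltbp1 was less set apart, at 164 to 256 CPM against a median of 211 CPM in VSMC 2. Emilin1 had 88.9 to 153 CPM, with a median of 122 CPM next to the 123 CPM of VSMC 6. This was the second lowest median of the 10, above only the 115 CPM of VSMC 9, a subcluster with many marked doublets described below.

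VSMC2-like cells outside VSMC 7 (878 cells, nearly all in VSMC 2, which is led by Fst, Col8a1, Ankrd1, ENSMUSG00000094686 and Apoe) were also compared with VSMC1-like cells, a comparison chosen after the values were seen. There 6 genes were lower in every library, with log2 ratios of -1.84 for Mfap5, -1.27 for Mfap4, -0.92 for Ltbp1, -0.77 for Ltbp3 and -0.33 for Ltbp4. No share over all genes is given for this comparison, so the count is not read as a result about the set. For the cells of VSMC 7 the ratios were -4.30 for Mfap5, -4.89 for Mfap4, -0.66 for Ltbp1, -1.19 for Ltbp3 and -1.42 for Ltbp4. Ltbp2 had 10 UMIs in all in VSMC 7, with 0 CPM at the median, so no ratio is given for it. For Fbn1 only levels are given here. Its median was 72.2 CPM in VSMC 2, with 41.9 to 97.3 CPM over libraries. In VSMC 7 the Fbn1 median was 34.3 CPM, beside 85.9 CPM in VSMC1-like cells. Of the VSMC 2 cells, 75.0% were VSMC2-like. Dissociation transcripts made up a median of 3.16% of UMIs per cell in VSMC 7 and 1.60% in the rest of the VSMC2-like cells, beside 1.05% in VSMC1-like cells.

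VSMC 6 stood at the other end. It held 649 cells led by Rgs5, a regulator of G-protein signalling often used as a pericyte marker, and by Prrx2, Sfrp2, Dlx6 and Adamtsl1. Of the 8 genes that passed, Ltbp1, Ltbp2 and Mfap5 were highest there, beside 10.2% of all genes. Mfap5 had 426 to 1191 CPM with a median of 919 CPM, the highest of the subclusters in 6 of 6 libraries. Ltbp1 had 364 to 541 CPM, with a median of 470.3 CPM, and was highest in 5 of 6. Ltbp2 had a median of 49.5 CPM, but VSMC 4 with 46.7 CPM was close and VSMC 6 came first in only 3 of 6 libraries. Mfap2, so low in VSMC-like cells as a whole, had 12.2 to 35.0 CPM there, with a median of 16.4 CPM.

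Among the other subclusters, Ltbp4 and Ltbp3 were highest in VSMC 5, led by Gdf15, Fos, Gm26669, Gm26825 and Zfp36, with medians of 1099 and 278 CPM. These cells were shallow, with a median of 3768 UMIs. VSMC 4, led by AY036118, Gm26699, Gm26724, Myo9b and 4930579P08Rik, was likewise shallow (4585 UMIs) and had the highest Emilin1 (209 CPM). Whether depth plays a part in these levels was not tested. Without both subclusters the VSMC2-like ratios kept their counts, with 7 genes lower in every library. That count concerns the subtypes and does not bear on the levels in VSMC 4 and VSMC 5. VSMC 8, led by Cd74, H2-Aa, H2-Eb1, H2-Ab1 and C4b, held fibroblast markers as well and had the highest Mfap4 (3122 CPM), next to VSMC 0 (3051 CPM), led by Ccdc42, Tes, Nrgn, Krt18 and Vstm2b. VSMC 9 (156 cells, led by Cygb, Clec3b, Pi16, Ly6a and Cxcl1) held both VSMC and fibroblast markers and 80.8% of its cells were marked as doublets, so its high Fbn1 (191 CPM) and Mfap2 (82.2 CPM) are not read as those of smooth muscle. VSMC 1 (Fos, Cfd, Socs3, Fosb, Car3) and VSMC 3 (Igfbp2, Des, Tnnt2, Psd, Unc45b) held no highest or lowest level.

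Fibroblast-like cells fell into 11 subclusters of at least 100 cells, and here the genes parted from each other. Fbn1 and Mfap5 were highest in fibroblast 2 (1580 cells), led by Dpp4, Smpd3, Emilin2, Basp1 and Cd248. Fbn1 had 743 to 1141 CPM there, with a median of 997 CPM, while the next highest subcluster, fibroblast 10, had no library over 319 CPM. Mfap5 had 1833 to 3726 CPM, with a median of 2857 CPM. Both were highest in fibroblast 2 in 6 of 6 libraries. Yet the same cells had the lowest median of Emilin1 (76.0 CPM, last in 5 of 6 libraries) and of Ltbp2 (20.0 CPM). For Ltbp2 they were last in only 2 of 6 libraries, and fibroblast 5 was next at 21.0 CPM. Fibroblast 2 also had the second lowest Mfap4 (1175 CPM).

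**Figure D4:**
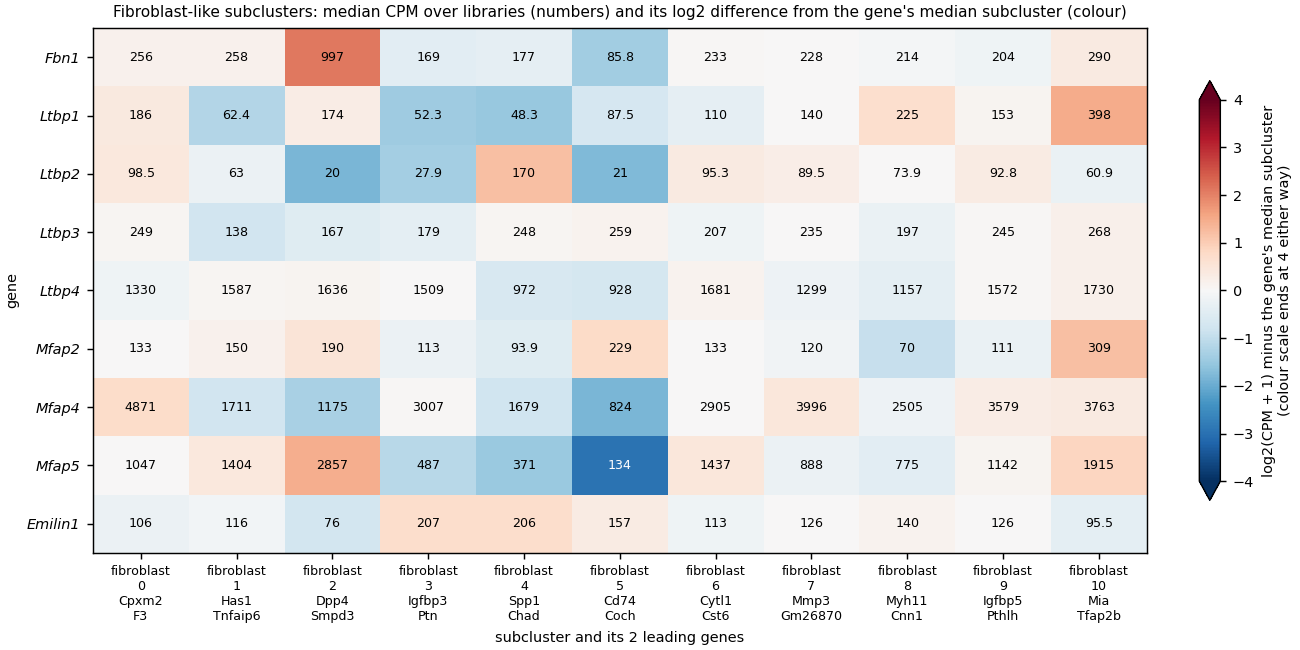
Median CPM over libraries with at least 20 cells (numbers) of 9 genes in 11 fibroblast-like subclusters, each named with its 2 leading genes. Colour is the log2(CPM + 1) difference from the median subcluster of the gene. Fbn1 (997 CPM) and Mfap5 (2857 CPM) are highest in fibroblast 2, Mfap4 (4871 CPM) in fibroblast 0, Ltbp2 (170.2 CPM) in fibroblast 4 and Ltbp1 (398 CPM) in fibroblast 10.

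Mfap4 was highest in fibroblast 0, the largest subcluster (3672 cells, led by Cpxm2, F3, Cpz, Pex5l and Colec11), with 2623 to 6687 CPM and a median of 4871 CPM, in 6 of 6 libraries. Ltbp2 was highest in fibroblast 4 (842 cells), led by Spp1, Chad, Cilp2, 1500015O10Rik and Ucma, several of which are known from cartilage. It had 71.8 to 329 CPM there and was highest in 5 of 6 libraries. The same cells had the lowest Ltbp1, 48.3 CPM, close to the 52.3 CPM of fibroblast 3. Emilin1 was highest in fibroblast 3 (928 cells, led by Igfbp3, Ptn, Gucy1a1, Angpt4 and Tmem215) and in fibroblast 4, with 207 and 206 CPM, and these 2 did not differ beyond their spread.

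Fibroblast 10 was small (323 cells, led by Mia, Tfap2b, Prss12, Cxcl5 and Adamtsl1, and with 20 cells in 5 of 6 libraries) and had the highest median of Ltbp1, Ltbp3, Ltbp4 and Mfap2. These are 4 of the 9 genes that passed, beside 15.4% of all genes. Its Ltbp1 (212 to 435 CPM, median 398 CPM) had a median above the highest VSMC-like library (384 CPM) and a range that overlapped the VSMC-like one, and its Mfap2 had a median of 309 CPM. Ltbp3 and Ltbp4 differed little between subclusters, by 1.94-fold and 1.86-fold from highest to lowest, and their highest values were not clear of the second (268 against 259 CPM, and 1729.9 against 1681 CPM).

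Fibroblast 5 (812 cells) was led by the antigen-presentation genes Cd74, H2-Eb1, H2-Aa and H2-Ab1 together with Coch. It had the lowest Fbn1 (85.8 CPM), Mfap5 (134 CPM), Mfap4 (824 CPM) and Ltbp4 (928 CPM), 4 of 9 genes that passed, beside 13.6% of all genes. For Fbn1, Mfap5 and Mfap4 it came last in each of the 5 libraries with at least 20 of its cells. Mfap5 had a narrow range of 124 to 139 CPM there, 21.4-fold under fibroblast 2. Its Mfap2, in contrast, was the second highest at 229 CPM, so the 2 MAGP genes parted in these cells. Fibroblast 8 (485 cells, led by Myh11, Cnn1, Acta2, Npnt and Tagln) held both marker lists, and 35.9% of its cells were marked as doublets. Without it, VSMC 8, VSMC 9 and subclusters under 100 cells, 7 genes were still higher and 1 lower in fibroblast-like cells in all 6 libraries. Fibroblast 1 (Has1, Tnfaip6, Ptx3, Ccl7, Il6) had the lowest Ltbp3 (138 CPM), and fibroblasts 6 (Cytl1, Cst6, Ces2e, Pthlh, Atp6v0a4), 7 (Mmp3, Gm26870, ENSMUSG00000094686, C2, Cpz) and 9 (Igfbp5, Pthlh, Enpep, Ly6d, Chchd10) held no highest or lowest value.

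The other genes of the pathway were described from lists that held 50 genes in all. Between fibroblast-like and VSMC-like cells 40 passed the filter, of which 21 were higher and 11 lower in all 6 libraries, beside 37% and 34.8% of all genes, with a median log2 ratio of 0.51. At the upper end were Emilin2 (6.86), which encodes the relative of EMILIN-1, Adamtsl2 (6.26), whose product binds fibrillin-1 and LTBP1, and the proteoglycan gene Dcn (5.67), itself a fibroblast marker. At the lower end were the integrin genes Itga8 (-4.36) and Itgb3 (-2.88) and Thsd4 (-3.95), which encodes the fibrillin-binding ADAMTSL6. Some of these passed the filter only through 1 class. Emilin2 and Adamtsl2 had 0.19 and 1.32 CPM in VSMC-like cells, and Itgb3 and Thsd4 had 3.78 and 6.24 CPM in fibroblast-like cells. Of the 16 elastic fibre partners that passed, 11 were higher and 3 lower, and elastin itself (Eln, chosen after its value was seen) was among the 3 lower (-0.61). Of 12 genes of latent TGF-β and its activation, 4 were higher and 5 lower, close to the shares of all genes. Of 8 ADAMTS and ADAMTS-like genes, 5 were higher and 2 lower. Emilin2 was the 1 relative of Emilin1 that passed, out of 4 listed.

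Between the VSMC subtypes 32 of the 50 passed, and 15 were lower and 6 higher in VSMC2-like cells in all 6 libraries, beside 24.5% lower and 11.9% higher of all genes, with a median log2 ratio of -0.36. The counts of the single lists are small and several lie near these shares. The proteoglycan gene Vcan had the lowest ratio (-3.25), then Eln (-2.34), at 1577 CPM in the first subtype and 301 CPM in the second, and Thsd4 (-1.78). The highest were Thbs1 (4.18), which encodes the TGF-β activator thrombospondin-1 at 22.5 CPM in the first subtype and 399 CPM in the second, the ligand gene Tgfb3 (1.44) and Dcn (1.04). Of the 13 elastic fibre partners that passed, 8 were lower and 2 higher. Of the 10 genes of latent TGF-β and its activation, 4 were lower, all of them integrin genes (Itga8, Itgb1, Itgb3 and Itgb5, named after their values were seen), and 2 were higher. Of the 6 ADAMTS and ADAMTS-like genes that passed, 2 were lower and 0 higher. The filter was set over both subtypes together, so it favoured genes of the more numerous VSMC1-like cells. It left out Adamtsl1 (19.3 CPM in VSMC2-like and 5.08 CPM in VSMC1-like cells) and Lrrc32 (18.0 and 6.28 CPM), both higher in all 6 libraries. Vcan passed with 4.70 CPM in VSMC2-like and 55.3 CPM in VSMC1-like cells. Mfap1a, Mfap1b and Mfap3, which share only the name with the microfibril genes, had ratios of 0.24, 0.17 and -0.25.

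The genes most like each member were sought among 8261 genes over 130 points, each the sum of the cells of 1 subcluster or class in 1 library with at least 20 cells. The points share libraries, depth and cell type, so the correlations are descriptions only. Fbn1 was most like Col6a1 (r 0.89), Lrp1 (0.87) and Col5a1 (0.87). Mfap2 was most like Fbln1 (0.92), Mmp2 (0.92) and Mtch1 (0.91), and Ltbp2 like Col6a1 (0.82), Col6a2 (0.81) and Col15a1 (0.80). Ltbp3 was most like Fkbp10 (0.91), Bgn (0.90) and Pdgfrb (0.89), Ltbp4 like Col5a2 (0.90), Ghr (0.90) and Sntb2 (0.88), and Ltbp1 like Gng12 (0.85), Neo1 (0.84) and Fstl3 (0.83). For Mfap4 they were Gxylt2 (0.85), Colec12 (0.82) and Aebp1 (0.82), for Mfap5 Pcolce2 (0.89), Gxylt2 (0.87) and Sema3c (0.86), and for Emilin1 Igfbp7 (0.86), Arhgef25 (0.84) and Sspn (0.84). The best r of Fbn2, 0.55 with Golga7, is that of a gene with almost no counts.

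Within the 55 VSMC points, Mfap4 was most like Pdlim4 (0.96), Gxylt2 (0.94) and Mmp23 (0.94), Mfap5 was most like Gxylt2 (0.93), and Ltbp3 like Eln (0.92). Among the members themselves, Mfap4 and Mfap5 were the most alike pair in smooth muscle (0.87), and Fbn1 and Ltbp3 came next (0.82). Ltbp1 and Emilin1 had an r of -0.02.

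By the GENCODE M21 annotation of mm10, the 9 genes other than Fbn2 lie at chr2:125300594-125507993 (Fbn1), chr17:75005568-75392512 (Ltbp1), chr12:84783212-84876532 (Ltbp2), chr19:5740904-5758532 (Ltbp3), chr7:27305136-27337692 (Ltbp4), chr4:141010418-141015984 (Mfap2), chr11:61485431-61488900 (Mfap4), chr6:122505845-122529290 (Mfap5) and chr5:30913402-30921277 (Emilin1). No member overlaps another counted gene on its own strand. Some members overlap a gene on the opposite strand, such as Fbn1 with Gm9913 and Mfap4 with Mapk7, and the 10x 3′ kit keeps the strand of the transcript.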

How the data were processed

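Single-cell libraries of 6 mice were made with the 10x 3′ v3 kit. The authors aligned reads to mm10 and aggregated the libraries with Cell Ranger (version 6 per the labels and methods, 4.0.0 in the matrix header), and deposited 1 matrix of raw UMI counts. Cells were filtered by the thresholds of the study and clustered with Seurat 5.3.0 (SCTransform, reciprocal PCA integration over libraries, 3000 variable genes, 30 components, resolution 0.25 for classes, 0.05 for the 2 VSMC subtypes and 0.3 for finer subclusters), in R 4.3.3. The 10 genes and the pathway lists were left out of the variable features. Doublets were marked, not removed, with scrublet in scanpy 1.11.5. In libraries 2 and 5, where its own call marked too few cells or none, the top 5% of scores were marked instead. This gave 5.35% and 5.22% of their cells, against 0.54% to 1.92% in the other libraries. Shares of marked doublets in a group thus depend in part on its libraries. UMI counts were summed per group and library and divided by the total (CPM). Ratios were taken within a library with 0.5 UMI added, for genes of at least 10 CPM over the cells compared. A difference was counted only where all 6 libraries had 1 direction. No p-value was computed, since no library has a genotype. Intervals are exact at 95% and cover counting error only. Shares of cells were also given after thinning each cell to 3000 UMIs, which left out 553 VSMC-like, 1229 fibroblast-like, 154 endothelial-like and 101 leukocyte-like cells. Only the ratio step was tested on simulated data, with UMI sums in which known changes were set. These sums held counting error only, and each change was the same in every library. Filtering, clustering, naming, doublet marking and thinning were not tested in this way.

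The members and gene lists were chosen with earlier results of these data known. Named beside the members are the 3 pathway genes at each end of a comparison, the 3 genes most like each member and the 5 leading genes of each subcluster. The alternatives were other clusterings, doublet, dissociation and fibroblast-marker filters, other sums, priors and minimum levels, and leaving out each library. Columns of other samples were not present in the matrix.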

Additional observations from a re-analysis of the deposited data

Results flagged for a closer look

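Of 40 sets of 6 library values examined, 3 had 1 library apart from the rest, by a gap to its nearest neighbour that was large against the range of the set. Chance alone does this in about 1 set in 20.

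Library 5 was apart in 2 of these sets, both of them for Fbn1 in smooth muscle. Its Fbn1 level in VSMC-like cells was 51.3 CPM, with the nearest library at 81.9 CPM. Its log2 ratio of Fbn1 in fibroblast-like over VSMC-like cells was 2.40, with the nearest at 1.87. The direction was the same in all 6 libraries.

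Library 4 had a log2 ratio of Fbn2 in VSMC2-like over VSMC1-like cells of 2.80, with the nearest library at 0. This rests on 1 UMI in VSMC2-like cells and 1 in VSMC1-like cells over all libraries, too few to read.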

How the results depend on the processing

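The counts for fibroblast-like over VSMC-like cells were 7 genes higher and 1 lower in all 6 libraries. A second gene, Emilin1, joined the lower ones (2 genes) with 1 sum over all libraries and in libraries 1, 3, 4 and 5 alone, and leaving out each library gave 1 to 2, with 2 only without library 6, the 1 library in which Emilin1 was higher. For VSMC2-like over VSMC1-like cells, keeping all variable genes gave 4 genes lower in every library in place of 7, a median log2 ratio of -0.52 in place of -0.87, and a reversed ratio of 0.018 for Ltbp4. The median was -0.73 with no filter on low values, -1.41 for the cells of VSMC 7 alone, and -0.999 in libraries 2 and 6. The last 2, and libraries 1, 3, 4 and 5, were chosen after seeing the data. The cause of these changes was not tested. Counts under the alternatives have no share over all genes beside them. Of the other values, 114 summary values and 357 single-gene values stayed within their limits, and 32 single-gene values moved with their direction kept or no direction called. Ratios between cell groups were all taken within a library. Between control and LDS mice, however, no comparison could be made. No paired analysis was possible because no library could be assigned to a mouse, so that replicate numbers of the genotypes could not be used. Depth limits Fbn2 everywhere, Mfap2 and Ltbp2 in VSMC2-like cells, and all endothelial-like and leukocyte-like values.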
